A study of Mus musculus with 18 samples.

Results

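The Hedgehog pathway genes examined here were *Gli1*, *Gli2*, *Gli3*, *Ptch1*, *Smo*, *Hhip* and *Sufu*, 7 of the 54532 genes counted in 18 bulk RNA sequencing libraries of 10T1/2 cells. They were chosen by name as the receptor, signal transducer, inhibitors and transcription factors of the pathway, with earlier results of these data known. 10T1/2 is an established multipotent mouse mesenchymal line that can form adipocytes or myofibroblasts. There were 6 groups with 3 libraries each: WT, FOXS1 KO clone 1 and FOXS1 KO clone 2, all both uninduced (control) and TGF-β1 + DMII stimulated. Stimulated cells received 1 nM TGF-β1 for 12 h, followed by 48 h of DMII, the adipogenic mix of dexamethasone, IBMX, insulin and indomethacin, so the effects of the TGF-β1 and DMII steps cannot be told apart. Each clone was grown from a single CRISPR-Cas9 edited cell, so the edit and the clone cannot be told apart, and all lines were maintained in the same serum-containing medium. Per the study's methods, cells were grown past confluence for adipogenic induction and serum-starved overnight for TGF-β1 treatment. Whether the uninduced cells were handled alike is not said there. The induction used another base medium, so medium, starvation and agents cannot be told apart either. The labels do not say whether the libraries of a group came from separate cultures, so the tests measure the spread between these libraries, which may be technical.

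Hedgehog ligands (Shh, Ihh and Dhh) bind the receptor Patched, which in their absence holds the membrane protein Smoothened inactive at the primary cilium. Once released, Smoothened lets the GLI proteins escape from SUFU: GLI2 acts mainly as an activator, GLI3 mainly as a repressor after processing, and GLI1 amplifies the response. *Gli1*, *Ptch1* and *Hhip* are themselves widely used transcriptional readouts of the pathway, and in mesenchymal progenitors Hedgehog signaling is known to restrain adipogenesis.

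Values are library-size-scaled read counts (CPM), adjusted with TMM, a factor that corrects for differences in library composition. A differentially expressed gene (DEG) had a Benjamini-Hochberg adjusted p below 0.05 in the edgeR quasi-likelihood test and a change of more than 2-fold in either direction. Library totals ran from 15576685 to 42005596 counts, 14317 genes passed the filter on low counts, and 6 of the 7 Hedgehog genes were among them (all but *Hhip*). *Foxs1*, the targeted gene, had a higher RNA total in the libraries labelled FOXS1 KO than in WT. It was at 1.64 to 3.25 CPM in the 6 WT libraries, at 21.0 to 27.1 CPM in the 6 uninduced and at 38.0 to 56.8 CPM in the 6 stimulated libraries labelled FOXS1 KO. Its total does not show whether the transcript carries the edit, the study checked its clones by sequencing the locus and by western blot, neither of which was measured here, and the clones are named below as their libraries are labelled. All 10 mesenchymal fibroblast markers had counts in every group, with a summed level of 27181 to 64443 CPM per library, although *Thy1* was at 0.342 to 0.616 CPM on average in the groups labelled clone 2 against 49.0 to 184 CPM elsewhere. Summed epithelial and immune markers reached at most 3.52 and 1.45 CPM, and the immune marker *Ptprc* was at 0 throughout.

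The stretch just upstream of a start site is shown for *Gli2* and *Ptch1*, the members that were DEGs in the most comparisons, 6 of 12 each. A RefSeq entry (GRCm38.p6) was found for 6 of the 7 genes, all but *Gli1*. The 250 bases before the start of *Gli2* lie at chr1:119053620-119053869 and those of *Ptch1* at chr13:63565736-63565985, both on the minus strand, and are written 5′ to 3′ along it, with capitals reserved for motif matches. The RefSeq start of *Ptch1* lies inside the span of the gene in the count table, whose outermost start is at position 63573598, so its stretch is that before an internal start.
Gli2: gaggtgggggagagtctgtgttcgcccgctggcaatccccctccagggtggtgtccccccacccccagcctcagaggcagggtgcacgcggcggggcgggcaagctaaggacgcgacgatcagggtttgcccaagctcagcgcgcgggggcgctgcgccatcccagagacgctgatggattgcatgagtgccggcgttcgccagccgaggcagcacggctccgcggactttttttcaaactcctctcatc
Ptch1: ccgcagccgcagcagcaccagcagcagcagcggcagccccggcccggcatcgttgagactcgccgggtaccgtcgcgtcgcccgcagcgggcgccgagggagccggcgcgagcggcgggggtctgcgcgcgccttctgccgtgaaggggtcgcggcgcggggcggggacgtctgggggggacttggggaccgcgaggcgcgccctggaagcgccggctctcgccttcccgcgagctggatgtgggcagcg
Neither stretch held a capital. The GLI consensus GACCACCCA and the forkhead core GTAAACA were searched on both strands, and neither was found in these 250 bases of any of the 6 genes. Among all 32851 RefSeq promoters of that length, 0.225% held the first and 3.17% held the second. The *Gli2* stretch had 67.2% G and C with 22 CpG dinucleotides and the *Ptch1* stretch 78.4% with 41, against a median of 52.4% G and C over all promoters.

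The members spanned a wide range of levels. Per kilobase of gene length, the scale on which genes can be compared, uninduced WT cells held 53.7 ± 3.71 CPM per kb of *Smo*, 10.0 ± 0.800 of *Sufu*, 5.50 ± 0.318 of *Gli3*, 3.78 ± 0.460 of *Gli2*, 2.51 ± 0.247 of *Ptch1* and 0.335 ± 0.102 of *Gli1* (SD, n = 3), with no count of *Hhip*. *Smo* ranked above *Sufu*, and *Sufu* above *Gli3*, in all 6 groups. Only below *Gli3* did the order change: *Gli2*, which stood above *Ptch1* in both WT groups, fell under it in the 4 groups labelled FOXS1 KO, where its 0.0891 to 0.248 CPM per kb lay near that of *Gli1* (0.0460 to 0.245 there, with libraries that overlapped only in uninduced clone 1).

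**Figure D1:**
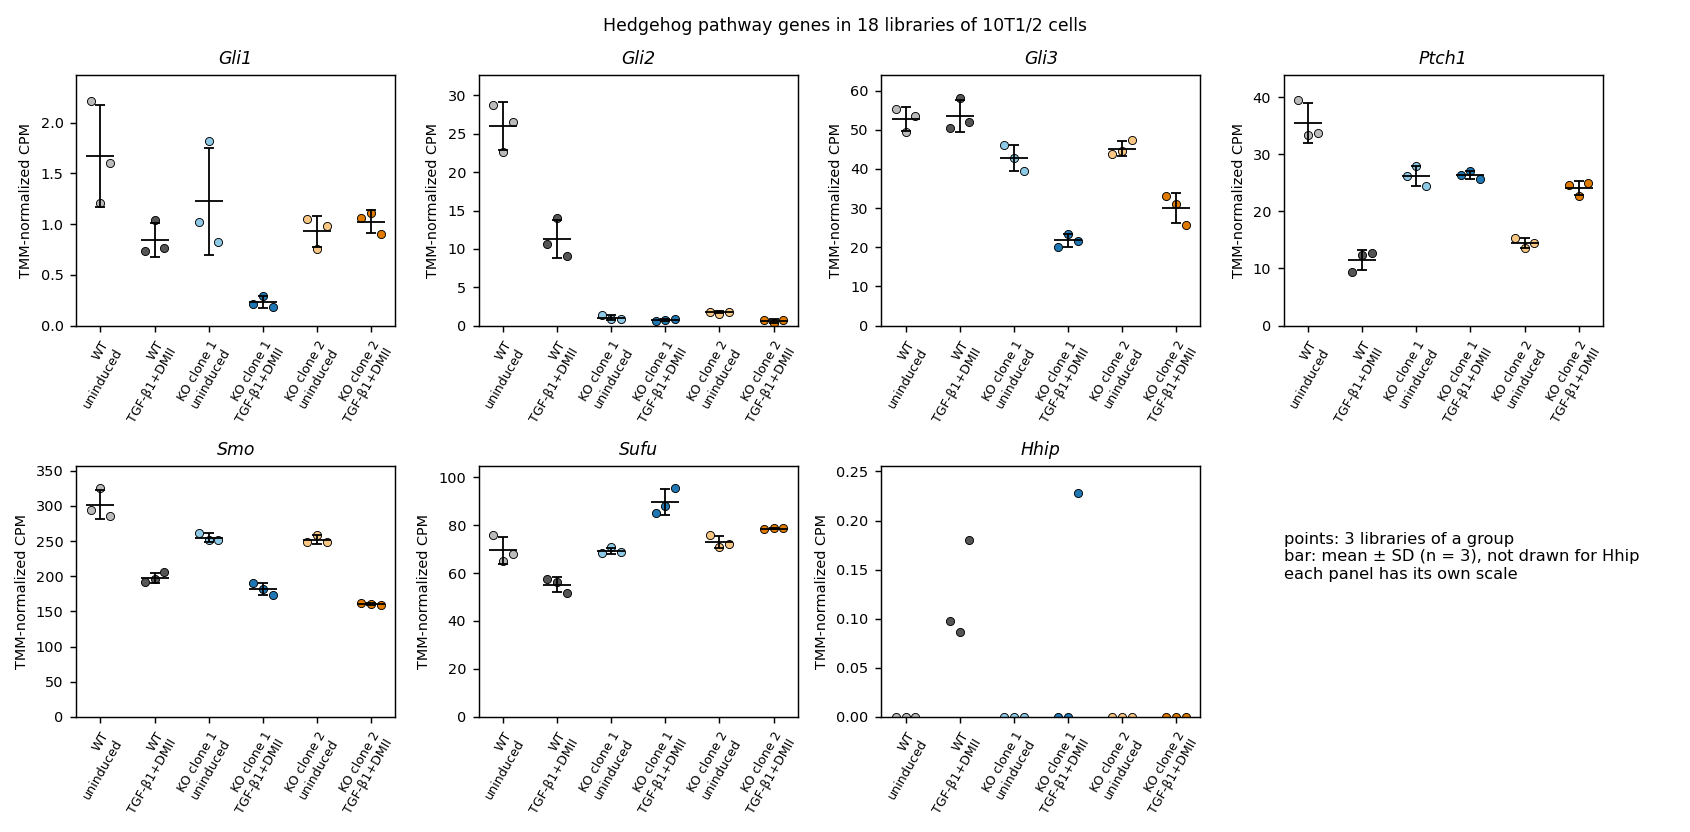
TMM-normalized CPM (vertical axes, linear, each panel on its own scale) of the 7 Hedgehog genes in the 3 libraries of each of the 6 groups (horizontal axis), with points for libraries and bars for the mean ± SD, except for *Hhip*, which is shown as points only. *Gli2* lies at or below 1.80 CPM in all 12 libraries labelled FOXS1 KO and at or above 9.10 CPM in the 6 WT libraries, while *Ptch1* falls on stimulation in WT cells alone.

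The ligands were nearly silent in every group. *Shh* had no count in any library, which allows at most 0.0354 to 0.0602 CPM in a group, *Dhh* had 1 count in each WT group and none elsewhere, and *Ihh* had 11 counts in uninduced WT cells and 1 to 5 in each other group. None of the 3 passed the filter. Like the counting intervals below, these limits cover counting error only. The fold values below that are set against such a limit use observed counts and leave out the error of those counts.

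*Ptch1* (ENSMUSG00000021466, chr13:63508328-63573598), the ligand receptor and a GLI target, responded to stimulation in opposite ways. In WT cells it stood at 39.6, 33.3 and 33.7 CPM uninduced and at 9.43, 12.4 and 12.7 CPM after TGF-β1 + DMII. Every stimulated WT library lay below every uninduced one, a 3.08-fold fall (log2 fold change -1.62, SE 0.10, adjusted p = 3.02e-14, edgeR). In the libraries labelled clone 1 it was at 26.1, 28.0 and 24.4 CPM uninduced and 26.5, 27.1 and 25.7 CPM stimulated, which overlapped (0.015, 95% interval -0.19 to 0.22, adjusted p = 0.920). In those labelled clone 2 it was at 15.4, 13.6 and 14.5 CPM uninduced and 24.6, 22.7 and 24.9 CPM stimulated. That rise of 0.73 on the log2 scale (adjusted p = 5.48e-07) separated the groups fully but stayed under the 2-fold threshold.

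The sign of the *Ptch1* difference from WT therefore turned with treatment. In uninduced cells *Ptch1* was lower in both clones, by 1.36-fold in clone 1 (log2 -0.44, adjusted p = 0.000374, not a DEG) and by 2.44-fold in clone 2 (-1.28, adjusted p = 4.81e-12). After stimulation it was higher in both, 2.29-fold in clone 1 (1.20, adjusted p = 3.38e-11) and 2.09-fold in clone 2 (1.06, adjusted p = 7.19e-10), and no library of either clone overlapped WT. The difference in response was 1.64 (SE 0.14, adjusted p = 1.33e-10) for clone 1 and 2.35 (SE 0.15, adjusted p = 9.34e-14) for clone 2. Across all genes, 3.12% had a response called higher in both clones. These comparisons share their WT libraries. The summed level of the 3 myofibroblast markers, all detected there, was 1980 to 2133 CPM in the stimulated WT libraries in which *Ptch1* was lowest, against 186 to 426 CPM in the other 15 libraries, where *Cnn1* was at 0 in uninduced clone 1. The part of that difference in the *Ptch1* values was not tested. In bulk RNA, fewer cells expressing a gene and less RNA per cell cannot be told apart, here and in the results that follow.

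The coreceptors CDON, BOC and GAS1 help Patched bind ligand. *Gas1* was abundant at 2349 to 4484 CPM (group means) and its changes stayed within 0.93 on the log2 scale. *Cdon* was lower in uninduced clone 2 than in WT (84.7 ± 4.55 against 184 ± 14.3 CPM, SD, n = 3, log2 -1.12, adjusted p = 7.29e-16), and *Boc* was higher in stimulated clone 2 (518 ± 23.0 against 248 ± 11.3 CPM, 1.06, adjusted p = 1.17e-14). *Lrp2*, an endocytic coreceptor, had 32 and 13 counts in uninduced and stimulated WT cells, 6 and 5 in uninduced clones 1 and 2, and none in either stimulated clone. As CPM, the level of stimulated WT cells lay 4.47-fold above the limit of 3 counts in clone 1 and 3.28-fold above that in clone 2. This takes the 13 WT counts without their own counting error, and *Lrp2* did not pass the filter.

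*Hhip* (ENSMUSG00000064325, chr8:79965851-80058006), a membrane decoy that binds ligand and a GLI target, was barely detected. All of its counts came from stimulated cells: 2, 2 and 4 in the WT libraries and 0, 0 and 5 in those labelled clone 1. The 9 uninduced libraries and the 3 stimulated libraries labelled clone 2 had none. In CPM the 8 WT counts lay 2.53-fold above the 3-count limit in uninduced WT cells and 2.02-fold above that in stimulated clone 2. The counting error of the 8 counts is not included, and the clone 1 counts all came from replicate 3. Without the filter no comparison of *Hhip* was called, and 1.93% of its exonic bases also lay in exons of *Gm27820* on the other strand.

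*Smo* (ENSMUSG00000001761, chr6:29735503-29761365), the transducer, was the most abundant member and, in stimulated cells, the one that varied least between genotypes. In uninduced cells *Sufu* differed less from WT (log2 -0.0029 in clone 1 and 0.072 in clone 2) than *Smo* did (-0.24 and -0.26). The *Smo* values follow. *Smo* was at 295, 325 and 286 CPM in uninduced and at 192, 196 and 206 CPM in stimulated WT libraries, without overlap. Its response was -0.61 in WT, -0.49 in clone 1 and -0.65 in clone 2 on the log2 scale (SE 0.049 to 0.050, adjusted p at most 9.83e-10, edgeR), all under the 2-fold threshold. The responses differed by 0.12 (95% interval -0.023 to 0.26) between clone 1 and WT and by -0.042 (-0.19 to 0.10) between clone 2 and WT, so neither difference was detected and both intervals excluded a 2-fold one. Relative to WT, *Smo* was lower by 0.12 to 0.30 in the 4 clone comparisons, with adjusted p of at most 0.0338.

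*Sufu* (ENSMUSG00000025231, chr19:46396896-46488804), the inhibitor that retains GLI proteins, separated the genotypes only after stimulation. Uninduced levels of each clone overlapped those of WT, at 75.7, 65.0 and 67.8 CPM in WT, 68.2, 70.8 and 69.0 CPM in clone 1 and 75.8, 70.9 and 72.0 CPM in clone 2. Between the clones, uninduced clone 1 lay just below clone 2 (log2 -0.074, adjusted p = 0.362). Stimulated levels did not overlap, at 57.3, 56.4 and 51.7 CPM in WT, 85.2, 88.1 and 95.7 CPM in clone 1 and 78.5, 78.7 and 78.6 CPM in clone 2. WT cells were lowest and clone 1 highest, with a log2 fold change from WT of 0.70 for clone 1 (SE 0.062, adjusted p = 4.84e-11) and, for clone 2, 0.51 (SE 0.063, adjusted p = 4.51e-08), below the fold threshold. *Sufu* fell with stimulation in WT (-0.33, adjusted p = 3.61e-05), rose in clone 1 (0.37, adjusted p = 7e-06) and changed by 0.11 in clone 2 (adjusted p = 0.148). The response differed from that of WT by 0.70 in clone 1 (adjusted p = 1.63e-07) and by 0.44 in clone 2 (adjusted p = 0.000222).

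*Gli2* (ENSMUSG00000048402, chr1:118834132-119053619), the main activator, showed the largest differences from WT of the members. Uninduced levels were 28.8, 22.6 and 26.6 CPM in WT (495, 431 and 698 counts), 1.38, 0.858 and 0.828 CPM in clone 1 (27, 16 and 16 counts) and 1.76, 1.55 and 1.80 CPM in clone 2 (79, 35 and 31 counts). After stimulation it was at 10.7, 14.0 and 9.10 CPM in WT (218, 325 and 202 counts), 0.532, 0.663 and 0.820 CPM in clone 1 (10, 18 and 18 counts) and 0.728, 0.327 and 0.781 CPM in clone 2 (13, 5 and 13 counts). No library labelled FOXS1 KO came near a WT library in either treatment. Uninduced clone 1 held 25.2-fold less *Gli2* than WT (log2 -4.66, SE 0.22, adjusted p = 4.48e-17), and uninduced clone 2 15.2-fold less (-3.93, SE 0.20, adjusted p = 1.85e-16). In stimulated cells it was 16.5-fold lower in clone 1 (-4.05, SE 0.24, adjusted p = 3.35e-15) and, by a like amount, in clone 2 (-4.17, SE 0.25, adjusted p = 1.13e-14). *Gli2* was the only member called lower in all 4 comparisons, which share their WT libraries, as 3.77% of all tested genes were.

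Stimulation lowered *Gli2* further in WT cells (2.30-fold, log2 -1.20, SE 0.17, adjusted p = 2.63e-07) and in clone 2 (2.73-fold, -1.45, SE 0.31, adjusted p = 0.000192). In clone 1 the change was -0.60 (SE 0.32, adjusted p = 0.122) from few counts. The difference in response from WT was 0.61 for clone 1 (95% interval -0.14 to 1.36) and -0.24 for clone 2 (-0.97 to 0.48), and neither was detectable at this depth. The exons of *Gli2* overlapped no other gene in the annotation. The summed level of the 3 endothelial markers, all detected, was 5.03 to 7.92 CPM in the uninduced WT libraries with the highest *Gli2* and at most 0.776 CPM in the other 15, nearly all of it from *Tek*, and its part in the WT values was not tested.

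The low *Gli2* level was not shared by most genes around it. A window of 1 Mb on either side, chosen after these values had been seen, held 11 other tested genes, of which 2 were called lower in each comparison except stimulated clone 2, with 1, where 8.73% to 9.6% of all tested genes were. Their median on the log2 scale was -0.27 for clone 1 and -0.17 for clone 2 without stimulation, and -0.61 and -0.21 with it. *Inhbb*, the activin beta B subunit gene 368.6 kb from the *Gli2* start, was lower by 3.03 and 1.21 in uninduced clones 1 and 2 and by 1.10 in stimulated clone 1 (DEGs), and by 0.77 in stimulated clone 2. *Tmem185b*, at 472.5 kb, had 146 and 214 counts in uninduced and stimulated WT cells and a single count over the 12 libraries labelled FOXS1 KO. By observed counts, its WT level was 44.8-fold above the limit of 3 counts in uninduced clone 1. With stimulation it was 73.6-fold and 54.0-fold above that limit in clones 1 and 2.

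**Figure D2:**
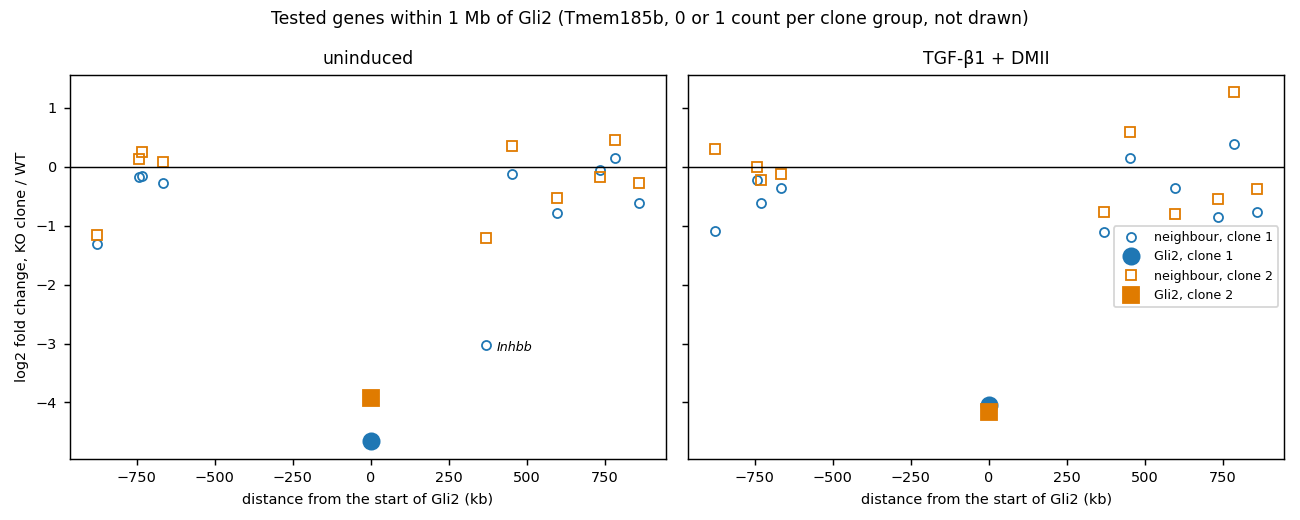
Log2 fold change between each clone and WT (vertical axis) of *Gli2* (large symbols) and its tested neighbours (small open symbols) by distance from the *Gli2* start in kb (horizontal axis), in uninduced (left) and stimulated cells (right). *Tmem185b*, with 0 or 1 count per clone group, is not drawn. *Gli2* lies at -3.93 or below in every comparison, and among the neighbours drawn *Inhbb* in uninduced clone 1 is lowest at -3.03.

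*Gli3* (ENSMUSG00000021318, chr13:15463235-15730026), the main repressor, held its level in WT cells and fell in both clones on stimulation. WT libraries were at 55.3, 49.4 and 53.6 CPM uninduced and 50.5, 58.0 and 52.0 CPM stimulated, with overlap. Clone 1 went from 46.1, 42.8 and 39.4 CPM to 20.2, 23.4 and 21.6 CPM, and clone 2 from 43.7, 44.5 and 47.4 CPM to 33.0, 31.1 and 25.6 CPM. Neither clone's stimulated libraries overlapped its uninduced ones or the WT libraries. The WT response was 0.021 (95% interval -0.15 to 0.19, adjusted p = 0.844). Clone 1 fell by 0.97 (SE 0.089, adjusted p = 1.11e-10) and clone 2 by 0.59 (SE 0.087, adjusted p = 1.05e-06). The difference from the WT response was -0.99 for clone 1 (SE 0.12, adjusted p = 1.13e-07) and, for clone 2, -0.61 (SE 0.12, adjusted p = 0.000177), so that of clone 1 lay just under the fold threshold.

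In stimulated cells *Gli3* was 2.46-fold lower in clone 1 than in WT (log2 -1.30, SE 0.088, adjusted p = 1.14e-13, a DEG) and lower by 0.84 in clone 2 (SE 0.087, adjusted p = 1.64e-09). In uninduced cells the differences were -0.30 and -0.23 (adjusted p = 0.00341 and 0.0242). Without stimulation, the *Gli3* level lay above that of *Gli2* by a wider margin in the clones than in WT. Uninduced clone 1 held 4.46 ± 0.347 CPM per kb of *Gli3* and 0.149 ± 0.0454 of *Gli2*, and uninduced clone 2 held 4.71 ± 0.202 and 0.248 ± 0.0195. Uninduced WT cells held 5.50 ± 0.318 and 3.78 ± 0.460 (SD, n = 3). With stimulation the margin as a difference was not wider in the clones, as *Gli3* was lower there. As a ratio of *Gli3* to *Gli2* it was wider in both stimulated clones than in stimulated WT cells. Means of *Gli3* and *Gli2* were then 5.58 and 1.64 CPM per kb in WT, 2.27 and 0.0978 in clone 1, and 3.12 and 0.0891 in clone 2.

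*Gli1* (ENSMUSG00000025407, chr10:127329882-127341974), an activator and the usual readout of the pathway, was scarce, with 4 to 47 counts per library. WT libraries had 38, 23 and 42 counts uninduced (2.21, 1.21 and 1.60 CPM) and 15, 24 and 17 counts stimulated (0.733, 1.04 and 0.766 CPM). Libraries labelled clone 1 had 20, 34 and 16 counts uninduced (1.02, 1.82 and 0.828 CPM) and 4, 8 and 4 counts stimulated (0.213, 0.295 and 0.182 CPM). Those labelled clone 2 had 47, 17 and 17 counts uninduced (1.05, 0.752 and 0.985 CPM) and 19, 17 and 15 counts stimulated (1.06, 1.11 and 0.902 CPM). Only stimulated clone 1 stood apart, below every other library.

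*Gli1* fell 5.13-fold with stimulation in clone 1 (log2 -2.36, SE 0.49, adjusted p = 0.000142), by 0.97 in WT (SE 0.41, adjusted p = 0.0413, not a DEG) and not detectably in clone 2 (0.13, 95% interval -0.73 to 0.99). In stimulated cells it was 3.56-fold lower in clone 1 than in WT (-1.83, SE 0.50, adjusted p = 0.00223) and 4.30-fold lower than in clone 2 (-2.11, SE 0.50, adjusted p = 0.000894), and the responses of the clones differed by -2.49 (SE 0.65, adjusted p = 0.0073). In uninduced cells neither clone passed the test for *Gli1* against WT: clone 1 differed by -0.44 (95% interval -1.26 to 0.38) and clone 2 by -0.83 (unadjusted 95% interval -1.65 to -0.011, adjusted p = 0.0824), while *Gli2* was 25.2-fold and 15.2-fold lower there. Of the 5 adipocyte markers, 4 had counts in stimulated clone 1 (*Lep* was at 0), summing to 30.4 to 42.9 CPM per library, against at most 4.64 CPM in the other 15 libraries, where up to 3 were at 0 in a group. Their part in the *Gli1* values was not tested. Exons of *Arhgap9* and *Gm47200* on the other strand shared 6.55% of the exonic bases of *Gli1*, and without a stated strand setting their reads cannot be told apart there.

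**Figure D3:**
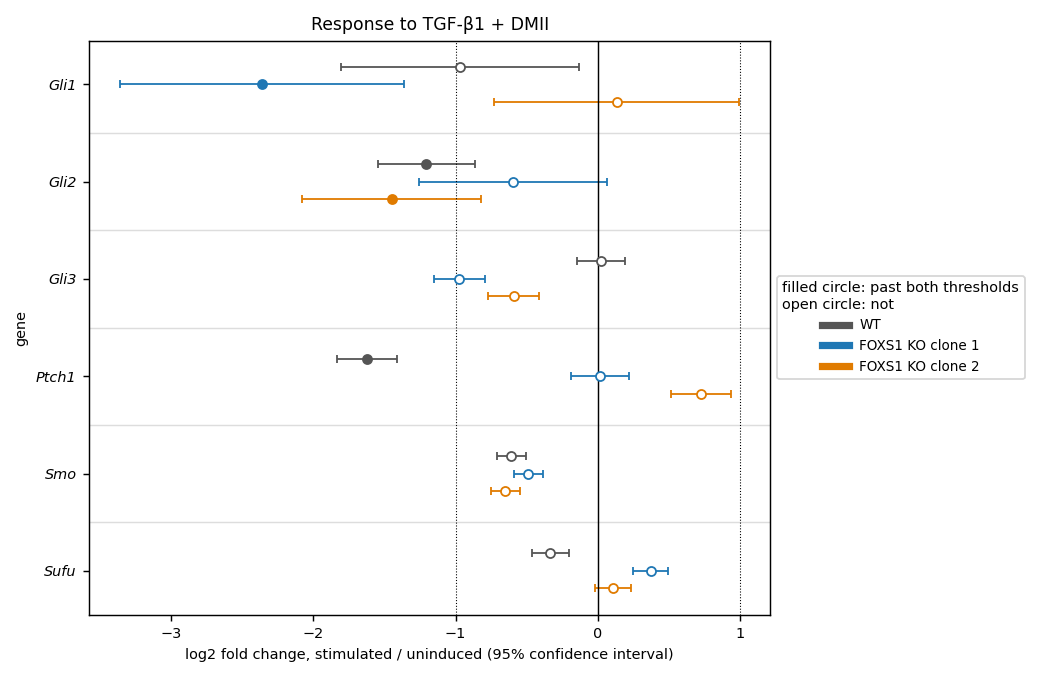
Log2 fold change between stimulated and uninduced cells (horizontal axis) of the 6 tested Hedgehog genes (vertical axis) in WT cells, FOXS1 KO clone 1 and FOXS1 KO clone 2, with 95% confidence intervals and dotted lines at a 2-fold change. *Ptch1* falls by 1.62 in WT and rises by 0.73 in clone 2, *Gli3* falls in the clones only, and *Smo* falls by a like amount in all.

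**Figure D4:**
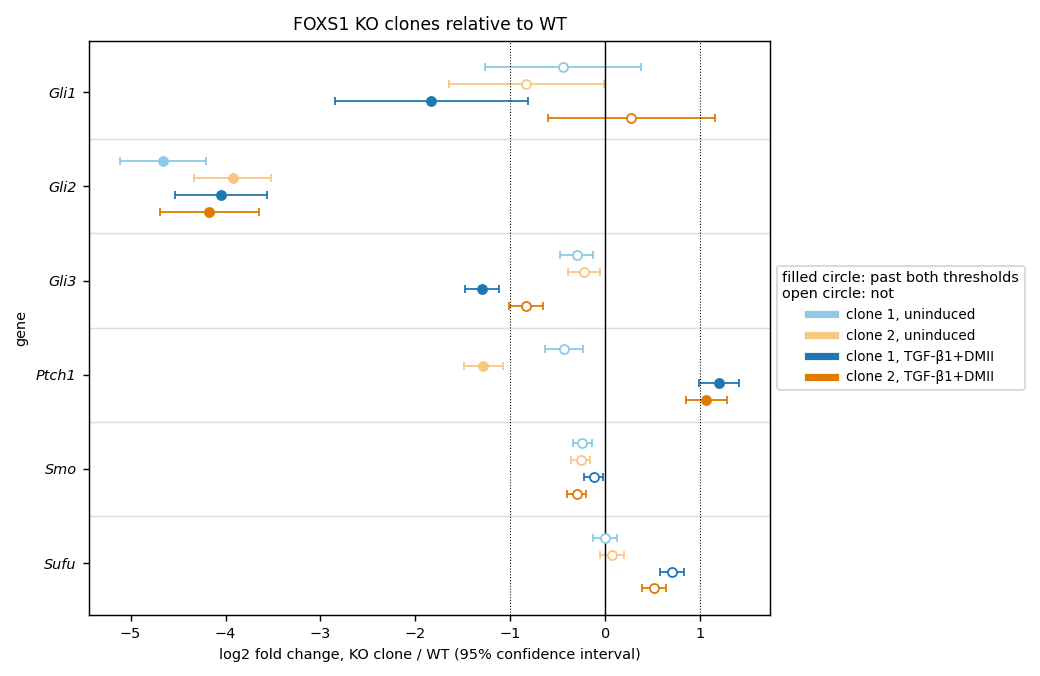
Log2 fold change between each clone and WT (horizontal axis) of the same genes (vertical axis) in uninduced (light) and stimulated cells (dark), with 95% confidence intervals and filled circles for DEGs. *Gli2* lies between -4.66 and -3.93 in all 4 comparisons, *Ptch1* crosses from below to above 0 with stimulation, and *Smo* stays within 0.30 of 0.

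Counted over the 6 tested members, the response to stimulation called 2 lower in WT cells (*Gli2* and *Ptch1*), 1 lower in clone 1 (*Gli1*) and 1 lower in clone 2 (*Gli2*), where 13.6%, 10.7% and 11.2% of all tested genes were called lower. Against WT, *Gli2* was the 1 member called lower in uninduced clone 1 (background 8.73%), and *Gli2* and *Ptch1* were the 2 called lower in uninduced clone 2 (background 9.56%). Stimulated clone 1 had 3 lower (*Gli1*, *Gli2* and *Gli3*, background 9.6%) and 1 higher (*Ptch1*, background 9.42%). Stimulated clone 2 had 1 lower (*Gli2*, background 8.94%) and 1 higher (*Ptch1*, background 7.95%). *Ptch1* was the 1 member whose response was called higher than in WT in each clone, as 5.34% of genes were in clone 1 and 4.89% in clone 2. Between the clones, none of the 6 was called in uninduced cells (background 8.67%, edgeR), and DESeq2 also called none. *Ptch1* was higher in clone 1 by 0.85 (adjusted p = 6.17e-08) and *Gli2* lower by 0.73 (adjusted p = 0.0287), both under the fold threshold, and these 2 were also those under an unadjusted p of 0.05. *Gli1* alone was called lower in clone 1 than in clone 2, in stimulated cells (background 4.48%) and in the response (background 1.48%). With 6 tested members, each of these shares turns on single genes.

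Among the other genes of the pathway, those that release or process ligand held several DEGs. *Scube3*, which helps release ligand from producing cells, was lower in both clones and both treatments, at 21.0 ± 3.36 CPM in uninduced WT against 0.400 ± 0.180 in clone 1 and 4.58 ± 0.0615 in clone 2 (SD, n = 3, log2 -5.69 and -2.19). In stimulated cells it was lower by 4.28 and 3.49. With stimulation *Scube3* fell by 2.00 in WT and by 3.30 in clone 2, and it was not a DEG in the clone 1 response. *Scube2*, its relative, and *Disp1*, the ligand exporter, were DEGs against WT in stimulated clone 1 only, both lower (-2.32 and -1.62, adjusted p = 2.91e-12 and 6.97e-16). *Hhat*, which attaches palmitate to the ligands, rose by 1.90 with stimulation in WT (9.61 ± 1.17 to 36.0 ± 1.30 CPM). It was also a DEG in the responses of clones 1 and 2, where it rose by 1.67 and 2.02. *Disp2* had 0, 12 and 12 counts in the uninduced WT libraries and none in stimulated WT cells. Clones 1 and 2 had 54 and 17 counts uninduced and 13 and 8 stimulated, and the fall in clone 1 was a DEG. By observed counts, the stimulated clones lay 4.20-fold and 3.52-fold over the WT limit, without the counting error of their few counts. Of the 5 tested genes of this list, 2 fell and 1 rose in the WT response (13.6% and 6.25% of all genes), 3 were lower and 1 higher in stimulated clone 1 (9.6% and 9.42%), and 1 was lower and 1 higher in stimulated clone 2 (8.94% and 7.95%).

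Of the 3 tested glypicans, cell surface proteoglycans that bind ligand, *Gpc6* fell by 1.17 in the WT response and *Gpc1* was higher in uninduced clone 2 (729 ± 17.7 against 275 ± 12.2 CPM, log2 1.41). The 14 tested genes that regulate or transmit Smoothened activity had 1 DEG in the comparisons of a clone with WT, *Efcab7*, an EVC complex partner. It was lower in stimulated clones 1 and 2 by 1.45 and 1.24 (2.11 ± 0.344 and 2.44 ± 0.358 against 5.74 ± 0.682 CPM), where 9.6% and 8.94% of all genes were called lower. None of the 14 was a DEG in the WT response, where 13.6% of all genes were called lower and 6.25% higher. The median of the 14 there was -0.50 against -0.036 over all genes, and 10 of them fell at an adjusted p below 0.05 alone. Of all tested genes, 31.9% did so. The response held 2 DEGs of the list in clone 1 (*Efcab7* and *Gpr161*, median -0.48) and 3 in clone 2 (*Evc*, *Gpr161* and *Stk36*, median -0.67), all lower, as 10.7% and 11.2% of all genes were. *Kif7* was the 1 DEG between the stimulated clones. *Gpr161*, *Evc*, *Stk36* and *Kif7* are named after their values were seen.

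Protein kinase A and casein kinase 1 mark the GLI proteins for processing. Of 23 such kinase and degradation genes, *Prkar2b*, a regulatory subunit of protein kinase A, showed a pattern of sign like that of *Ptch1* in stimulated cells: it fell by 1.21 in WT (97.0 ± 10.4 to 42.0 ± 2.40 CPM) and was higher in both stimulated clones by 1.61 and 1.65 (128 and 132 CPM on average). *Dyrk2* fell by 1.01 in WT, and *Csnk1g2* was lower by 1.03 in stimulated clone 1. *Prkar1b*, another regulatory subunit, was lower by 1.95 and 1.88 in the uninduced clones at 0.197 to 0.819 CPM on average, under the level at which the naming rule took genes, so it was chosen after its values were seen. With stimulation *Prkar1b* rose by 1.55 in clone 1 and by 2.01 in clone 2 (DEGs). The other 21 genes of this list were not called in the WT response, where 13.6% of all genes were called lower and 6.25% higher.

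The primary cilium, where Smoothened and the GLI proteins meet, was represented by 30 tested genes. In the WT response 1 was a DEG (*B9d1*, -1.34), where 13.6% of all genes were called lower and 6.25% higher. The clone 1 response held 3 DEGs of the list, all lower, and that of clone 2 none, where 10.7% and 11.2% of all genes were called lower. The list median was -0.42 in WT, -0.34 in clone 1 and -0.29 in clone 2, against -0.036, -0.023 and -0.020 over all genes. *Mks1*, a transition zone gene, was lower in clone 1 alone of the clones, at 2.01 ± 0.493 against 9.03 ± 0.877 CPM uninduced (log2 -2.16, adjusted p = 8.73e-10) and 0.510 ± 0.159 against 6.03 ± 1.06 CPM stimulated (-3.57, adjusted p = 1.18e-12). In clone 2 it was within 0.05 of WT in both treatments. *Ofd1* was higher in both uninduced clones (1.36 and 1.00), and *Tctn1* was lower in uninduced (-1.03) and *Tctn2* in stimulated clone 1 (-1.05). In stimulated clone 2, edgeR called no cilium gene past both thresholds, where 7.95% of all genes were called higher and 8.94% lower. At an adjusted p below 0.05 alone, 8 were higher and 5 lower, against 27.7% and 28.3% of all genes.

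Other genes known as GLI targets did not move in a single direction. Of the 7 tested, stimulated clone 1 had 2 higher (*Foxf2*, 1.43, and *Foxl1*, 2.20) and 2 lower (*Ccnd1*, -2.25, and *Ccnd2*, -1.86), against 9.42% and 9.6% of all genes, and stimulated clone 2 had *Foxl1* higher (2.36) and *Foxf1* lower (-1.02), against 7.95% and 8.94%. *Foxf1*, a mesenchymal forkhead factor, was also the 1 DEG of the list in each uninduced clone, at 7.07 ± 2.21 and 4.89 ± 0.646 against 21.0 ± 0.425 CPM in WT (-1.56 and -2.07, adjusted p = 1.06e-10 and 2.45e-13). Of all genes, 8.73% and 9.56% were called lower in these 2 comparisons. In the WT response *Foxf2* and *Ccnd2*, a D-type cyclin gene, rose by 1.88 and 1.04, where 6.25% of all genes were called higher. The clone 1 response held 3 DEGs of the list higher and 1 lower, and that of clone 2 held 4 higher and 1 lower. *Foxf2* was a DEG in both. Of all 14317 tested genes, 2391 and 2528 were DEGs in either direction in these 2 responses. The list median in stimulated clones 1 and 2 was -0.37 and -0.69, against -0.015 and -0.0097 over all genes. Of the 5 genes that the study names as the core of its hedgehog signaling set, a choice made on these same libraries and so no independent evidence of direction, *Scg2*, *Crmp1* and *Slit1* had at most 10 counts in any group and did not pass the filter. *Gli1* is described above. *Adgrg1*, an adhesion receptor, had 130 counts in stimulated WT cells, 10 in stimulated clone 1 (log2 -3.71, adjusted p = 2.66e-07) and 3 in stimulated clone 2 (32.8-fold lower by counts, 95% counting interval 11 to 161).

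The genes whose log2 CPM followed each member most closely over the 18 libraries, among genes of at least 1 CPM on average, were *2610524H06Rik* and *Col18a1* for *Gli2* (Pearson r = 0.982 and 0.980), *Cpd* and *Adamts1* for *Ptch1* (0.941 and 0.932), *Fam13c* and *Pknox2* for *Gli3* (0.958 and 0.954), *Stat5a* and *Heg1* for *Sufu* (0.970 and 0.960), *Suclg2* and *Fam76a* for *Smo* (0.989 and 0.979) and *Gm12940* and *3110039I08Rik* for *Gli1* (0.926 and 0.885). Each r is among the highest over at least 12205 genes and the libraries share 6 group means, so these values only describe likeness. Between members, *Gli3* and *Sufu* ran most opposite (-0.81), and *Gli2* and *Ptch1* were nearly unrelated (-0.055).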

How the data were processed

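The data were read counts per gene of 18 poly(A) RNA-seq libraries. Per the paper's methods, the authors sequenced 150 bp read pairs and mapped them to GRCm38/mm10 with HISAT2, and the counts were deposited without normalization. What program, annotation release and strand setting were used to count was not given in the sources used here. Gene lengths came from the deposited table and exon overlaps from GENCODE M21.

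Counts were filtered (filterByExpr, minimum count 10), scaled with TMM and fitted in edgeR 4.0.16 (R 4.3.3) with 1 mean per group over all 18 libraries. P-values were adjusted over all 14317 tested genes. The paper names DESeq2 for this step, and DESeq2 1.42.0 served as an alternative, beside its size factors, both other filters, fits of the compared groups only, a replicate block and each library left out. Intervals are at 95%. The procedure was tested on simulated data. Replicate numbers did not pair the libraries: 45 correlations of same-numbered deviations ran from -0.0412 to 0.0498.

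The members and gene lists were chosen with earlier results of these data known. The text names all members, the ligands and the coreceptors, up to 4 DEGs per further list and comparison with a mean of at least 1 CPM, ranked by change, the study's 5 core genes and the 2 genes most like each member. No per-sample column was left unmapped, and no replicates agreed within sampling noise. A result on a withheld item is not reported here.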

Additional observations from a re-analysis of the deposited data

Results flagged for a closer look

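The response to TGF-β1 + DMII, as a log2 fold change, differed between groups for *Ptch1*, *Gli3*, *Sufu* and *Gli1* by the test of the difference itself (edgeR, adjusted p below 0.05, groups labelled as deposited). The share of all genes at this threshold is not given here, so nothing is read from how many members passed it. *Ptch1* fell by 1.62 in WT, and its response was higher by 1.64 in clone 1 and by 2.35 in clone 2, with clone 1 below clone 2 (-0.71, adjusted p = 0.00053). *Gli3* held its level in WT, and its response was lower, by -0.99 in clone 1 and -0.61 in clone 2, with a difference of -0.38 between the clones (adjusted p = 0.0367). *Sufu* fell by 0.33 in WT, and its response was higher by 0.70 in clone 1 and by 0.44 in clone 2, with a difference of 0.26 between the clones (adjusted p = 0.0383). *Gli1* had the largest difference between the clones, -2.49 (adjusted p = 0.0073), with 4, 8 and 4 counts in stimulated clone 1 and 19, 17 and 15 in stimulated clone 2. Of these differences, those of *Ptch1* from WT and that of *Gli1* between clones exceeded 2-fold. Of all genes, 5.34% and 4.89% were called higher in the responses of clones 1 and 2 against WT. Between the clones 1.48% were called lower. A group of 3 libraries is too small for a test of single outlying libraries.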

How the results depend on the processing

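No call of a tested member changed under DESeq2, DESeq2 size factors in edgeR, a filter of 1 CPM in 3 libraries, or a fit of the compared groups only. Same-numbered libraries shared only a number, and with the replicate number as a block the count of members called stayed at 2 in the WT response, with no other call changed. Without a filter beyond 1 count, 2 members in place of 1 were called in the difference in response of clone 1 from WT (*Gli3*, -1.02). With a library left out, the count called ranged from 1 to 2 in the clone 1 response, 1 to 2 in the difference in response of clone 1 from WT, 1 to 2 in stimulated clone 2 against WT and 0 to 1 between uninduced clones. In the clone 1 response *Gli3* passed 2-fold without uninduced clone 1 replicate 3 (-1.03) or stimulated clone 1 replicate 2 (-1.02), and in its difference from WT it did so without any of 6 libraries (-1.01 to -1.06): WT uninduced 1 and 3, WT stimulated 1 and 3, clone 1 uninduced 3 and clone 1 stimulated 2. *Ptch1* lost its call in stimulated clone 2 without WT stimulated replicate 1 (0.94), and *Gli2* gained one between uninduced clones without clone 1 replicate 1 (-1.01). Without WT uninduced replicate 2, *Gli1* was called in the WT response (-1.15) and in uninduced clone 2 (-1.01).

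The changes of sign were all in values near 0 that were not called. With a library left out, the *Gli3* WT response ranged from -0.025 to 0.079 (-0.020 without WT uninduced replicate 2) and the *Ptch1* clone 1 response from -0.033 to 0.065. *Sufu* in uninduced clone 1 against WT was 0.021 without the filter and ranged from -0.046 to 0.060 with a library left out (0.011 and 0.0024 without clone 1 replicates 1 and 3). The *Gli2* difference in response of clone 2 from WT ranged from -0.44 to 0.028. Between uninduced clones *Gli1* ranged from -0.015 to 0.60, and *Smo* from -0.0044 to 0.036, with -0.0021 without the filter. Between stimulated clones *Gli2* ranged from -0.15 to 0.32 (-0.020 without clone 1 replicate 3). Beyond the stated changes in libraries or filter, the cause was not tested. Depth limits *Gli1*, *Gli2* in the clones and *Hhip* most: 1 count was worth 0.0223 to 0.0654 CPM.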
